A study of Mus musculus with 6 samples.

Results

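Lgr receptors, R-spondins and the ligases they act on were measured by 16 probes of 9 genes (Lgr4, Lgr5, Lgr6, Rspo1, Rspo2, Rspo3, Rspo4, Znrf3 and Rnf43), out of 45281 probes and 19057 named genes on an Illumina bead array. The probes were taken by gene symbol in the platform annotation, and the family itself was chosen from measured values, since Lgr5 had shown the largest fall of all genes between these same arrays. The genotype difference in the family is therefore given as a description, and its limma calls support nothing by themselves. The RNA came from mouse embryonic fibroblasts, connective tissue cells grown from dissociated embryos, on the C57Bl/6NCr background. One group of 3 arrays was Lasp1-/-, with the gene for the actin-binding LIM and SH3 domain protein LASP1 disrupted on both chromosomes (knockout), and the other group of 3 arrays was Lasp1+/+ (wild type). The labels give neither the age of the embryos, nor whether cells were pooled, nor whether arrays of a genotype came from separate embryos or cultures, so standard errors and p-values measure only the spread between these arrays, which may be technical.

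LGR4, LGR5 and LGR6 are receptors that cross the membrane repeatedly and bind secreted R-spondins through leucine-rich repeats outside the cell. ZNRF3 and RNF43 are membrane E3 ubiquitin ligases that send the Frizzled receptors for Wnt proteins to degradation. An R-spondin joins an LGR to one of these ligases and clears the ligase from the cell surface, so that more Frizzled stays there and the response to Wnt is stronger. Lgr5 marks stem cells of the intestine and hair follicle and is itself a Wnt target gene there, and R-spondins are commonly made by mesenchymal cells next to such epithelia.

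The values are linear intensities, and each array had a median of 1000. Probes in the lower part of an array read close to 1000 whatever their gene, so a difference between dim readings may understate a change in RNA. By how much was not measured, since the background handling is not known, and background-corrected differences depend on the model used. At its brightest probe Lasp1 read 50898 ± 1072 in knockout and 144104 ± 7634 in wild-type arrays (SD, n = 3 each), a log2 difference of -1.50 ± 0.07 (SE, limma adjusted p = 1.00e-05). A dimmer Lasp1 probe differed by -2.03 ± 0.15 (limma adjusted p = 0.00018), and the remaining one, near the array median, was not called (-0.26 ± 0.08, limma adjusted p = 0.121). Permuting the arrays exactly (both tails) gave p = 0.1 for every Lasp1 probe, which groups of 3 and 3 cannot go below. The place of the probes relative to the disrupted part of Lasp1 was not determined here. Fibroblast markers were present, with an intensity over 2000 in at least 1 array for 9 of 10 (Col1a1, a chain of type I collagen, averaged 227027 ± 5711 in knockout and 264623 ± 6401 in wild-type arrays; SD, n = 3 each).

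**Figure D1:**
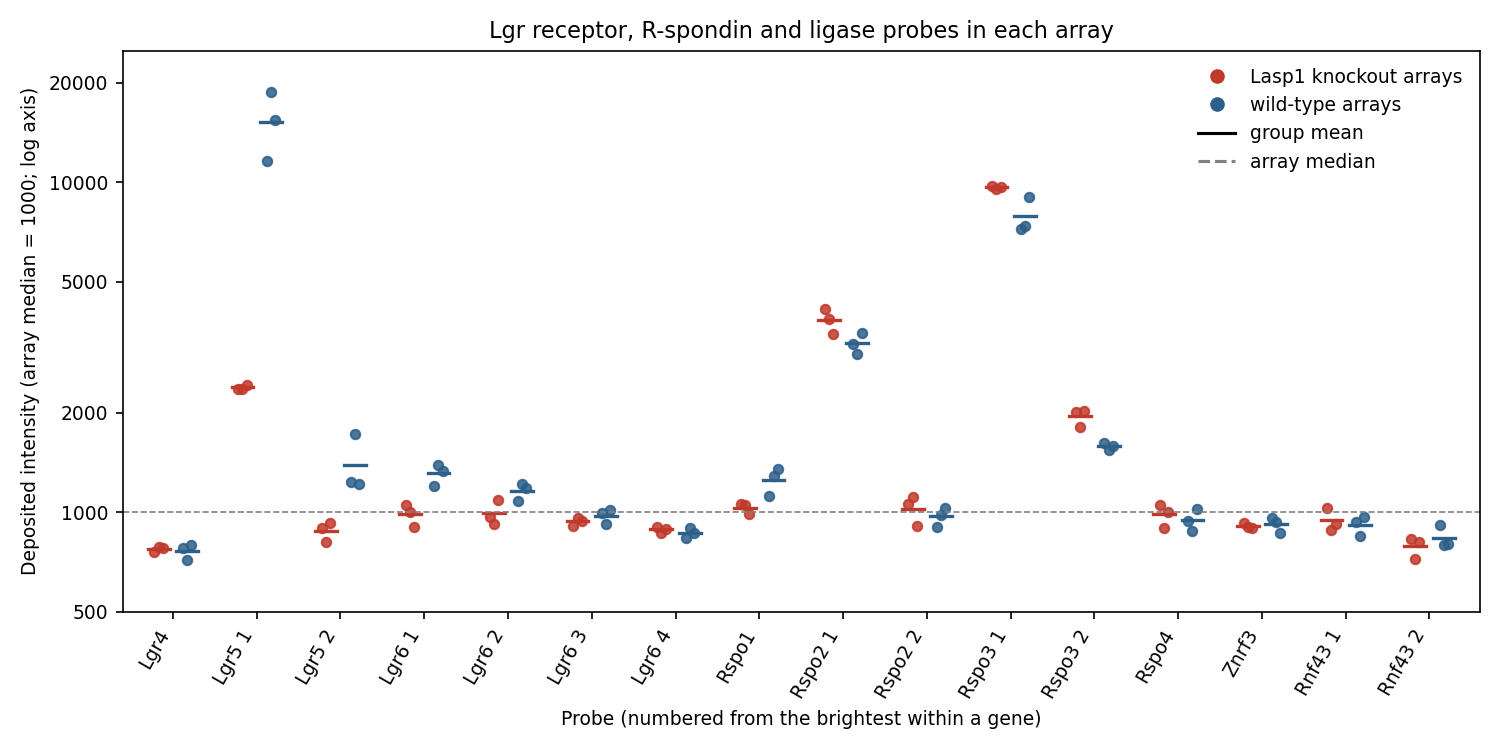
Deposited intensity on a log axis at the 16 probes, with knockout arrays on the left of each pair and wild-type arrays on the right, a bar at each group mean and a dashed line at the array median of 1000. Lgr5 is the member with the widest gap, Rspo2 and Rspo3 are the other members with readings above 2000, and 12 of the 16 probes read under 2000 in every array.

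Among the receptors, Lgr5 fell in knockout cells, Lgr6 was lower at 1 of its 4 probes, and Lgr4 was too dim to compare. At the brighter Lgr5 probe (ILMN_2650008, designed to a RefSeq transcript) the knockout arrays read 2368, 2361 and 2435, against 11596, 18700 and 15470 in wild-type arrays. The groups were far apart, and the highest knockout array lay below the lowest wild-type array. The means were 2388 ± 40.7 in knockout and 15255 ± 3557 in wild type (SD, n = 3 each), a log2 difference of -2.65 ± 0.15 (SE), with knockout at 15.9% of wild type, or 6.27-fold lower on the ratio of geometric means. The spread was uneven: the highest reading was 1.03 times the lowest among knockout arrays and 1.61 times among wild-type arrays. The knockout readings still exceeded 75.5% to 77.1% of the probes on their arrays, and the wild-type readings 91.2% to 93.2%. In RNA from a whole culture, fewer Lgr5-expressing cells and less Lgr5 RNA per cell cannot be told apart.

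The dimmer Lgr5 probe (ILMN_1241448), designed to a cDNA clone, read 898, 815 and 927 in knockout arrays, against 1231, 1726 and 1220 in wild-type arrays. It pointed the same way with no overlap, but its knockout readings lay below the array median and its log2 difference was smaller, at -0.64 ± 0.13 (SE). After normexp background correction it differed by -1.64 (3.11-fold, against 1.56-fold as deposited) and was still called. Wild type replicate 2 was the highest array at both probes, and it also had the highest upper quartile of all probes (2330, against 2018 to 2283 in the other 5 arrays). Without that array the brighter probe differed by -2.49, and without wild type replicate 1, the lowest wild-type array there, by -2.83. Averaging both probes before the fit gave -1.65, a 3.13-fold difference. The dimmer probe was not called without knockout replicate 1, 2 or 3 or wild type replicate 3, where its log2 difference was between -0.73 and -0.59.

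Lgr6, the receptor of some hair follicle and skin stem cells, was dim at all 4 of its probes. The brightest (ILMN_2609504) read 1054, 1000 and 902 in knockout arrays, against 1205, 1391 and 1336 in wild-type arrays. The groups did not overlap, and the log2 difference was -0.41 ± 0.08 (SE). The next probe (ILMN_2609505) overlapped by a single array, with 966, 923 and 1086 in knockout and 1080, 1220 and 1186 in wild type (-0.23 ± 0.08, or -0.60 after background correction), and was not called. The remaining probes differed by -0.06 ± 0.07 and 0.04 ± 0.06, with overlapping arrays and readings between 835 and 1016. Averaging the 4 probes gave -0.17, which was not called. The brightest probe was not called without knockout replicate 2 (-0.42), knockout replicate 3 (-0.35) or wild type replicate 3 (-0.40), nor after background correction, where the difference was -0.99.

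Lgr4, the most widely expressed of the 3 receptors in mouse tissues, had a single probe that read 756, 784 and 777 in knockout and 779, 716 and 796 in wild-type arrays. These readings exceeded only 0.788% to 5.99% of the probes on each array. The log2 difference was 0.02 ± 0.07, with a 95% interval of -0.14 to 0.17, and at readings this dim a difference in Lgr4 RNA was not detectable.

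Among the R-spondins, secreted proteins with furin-like repeats, Rspo3 and Rspo2 had bright probes, and none was called in either direction. Rspo3, which supports blood vessel and placental development in mice, read 9766, 9516 and 9676 in knockout arrays at its brighter probe (ILMN_3162785), against 7230, 7372 and 9034 in wild-type arrays. All knockout arrays lay above the wild-type arrays, of which replicate 3 stood closest to them. The dimmer probe (ILMN_2736451) read 2017, 1812 and 2027 in knockout and 1626, 1539 and 1587 in wild-type arrays, again with no overlap. Both probes gave a log2 difference of 0.30 (SE 0.09 at the brighter and 0.07 at the dimmer), or 1.23-fold. The 95% intervals were 0.10 to 0.51 and 0.14 to 0.46, and after background correction the differences were 0.32 and 0.46, not called. Rspo3 was called higher at both probes after quantile normalization (0.41 and 0.31), at the dimmer probe with array weights (0.31), over the mean of its probes (0.30), and at the brighter probe without wild type replicate 3 (0.40).

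Rspo2, which is needed for limb and lung development in mice, read 4116, 3850 and 3470 in knockout and 3231, 3017 and 3500 in wild-type arrays at its brighter probe (ILMN_2910230). Knockout replicate 3 lay just below wild type replicate 3, so the groups overlapped, and the log2 difference was 0.23 ± 0.09 (95% interval 0.03 to 0.43). Its other probe, designed to a cDNA clone, read between 900 and 1110 on all arrays and differed by 0.07 ± 0.09. Rspo1, whose loss disturbs ovary development in mice, read 1062, 1054 and 985 in knockout and 1124, 1284 and 1348 in wild-type arrays. The knockout arrays were all lower, by -0.27 ± 0.08 with a 95% interval of -0.46 to -0.09, and by -0.64 after background correction. Rspo1 was called lower in just 2 alternatives, array weights (-0.33) and wild type replicate 1 left out (-0.35). Rspo4, which is mutated in an inherited absence of nails in humans, read 1054, 898 and 1004 in knockout and 938, 877 and 1025 in wild-type arrays, with a log2 difference of 0.06 ± 0.09.

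Neither ligase had a reading clearly above the dim part of its arrays. Znrf3 read 930, 900 and 896 in knockout and 961, 936 and 868 in wild-type arrays, a log2 difference of -0.02 ± 0.07 (95% interval -0.17 to 0.13). Rnf43 read 1029, 882 and 923 in knockout and 934, 845 and 971 in wild-type arrays at its brighter probe (0.04 ± 0.08, 95% interval -0.15 to 0.23). Its other probe, designed to a cDNA clone, differed by -0.09 ± 0.09. The arrays of the genotypes overlapped at all 3 ligase probes, and these readings do not show that the ligases were equal in amount.

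**Figure D2:**
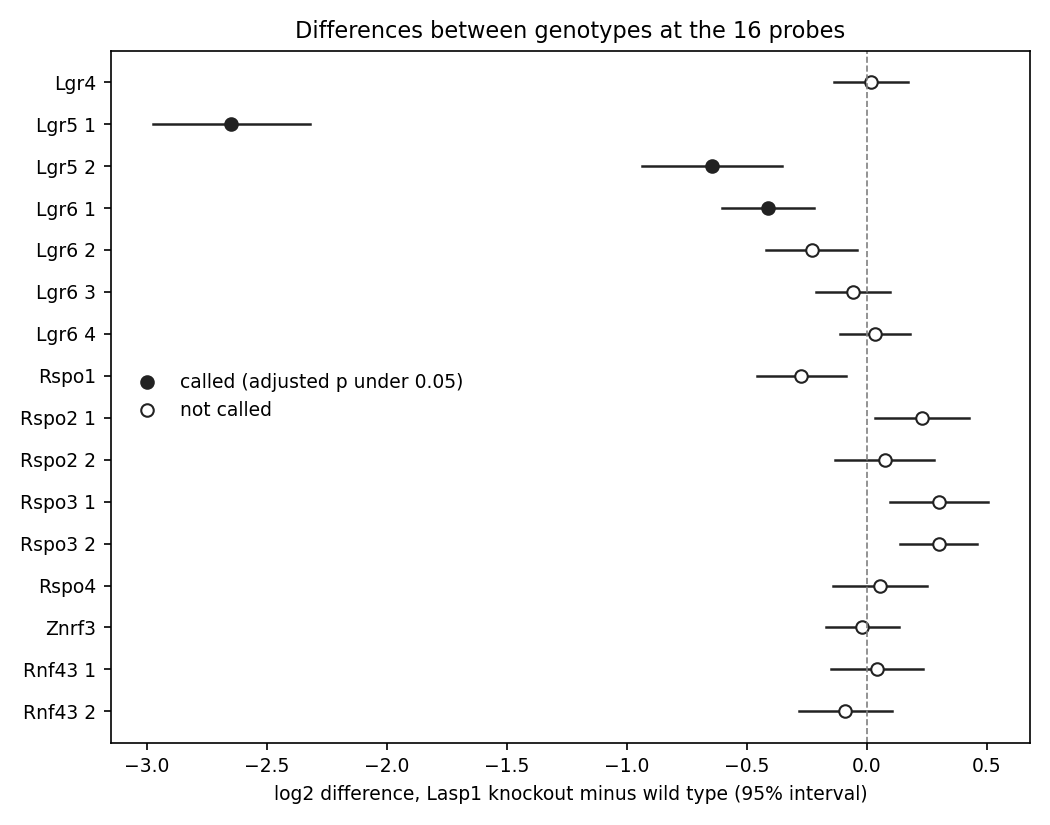
Log2 difference (knockout minus wild type) with its 95% interval from limma at each of the 16 probes, filled where the adjusted p was under 0.05. Both Lgr5 probes and the brightest Lgr6 probe are filled on the lower side, and both Rspo3 probes lie at 0.30 with open symbols.

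Across the family limma called 3 of 16 probes lower and 0 higher at an adjusted p under 0.05. Over all probes 2.5% were called lower and 1.4% higher (1131 and 633 probes, against 1589 and 1712 after quantile normalization). All knockout arrays lay below all wild-type arrays at 4 member probes and above them at 2, where these shares over all probes were 11.5% and 6.97%. The median log2 difference was -0.00073 over the 16 probes and -0.012 over all probes. Because the family was chosen from this same contrast, no more is read from these counts. Lgr5 was called under each of 14 alternative settings. Log2 differences at its brighter probe lay between -3.04 and -2.49, and the mean of both probes gave -1.65. Lower calls in the family numbered 1 without knockout replicate 2, knockout replicate 3 or wild type replicate 3, and 2 without knockout replicate 1. Over all probes lower calls in these settings numbered 447, 343, 424 and 1151.

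**Figure D3:**
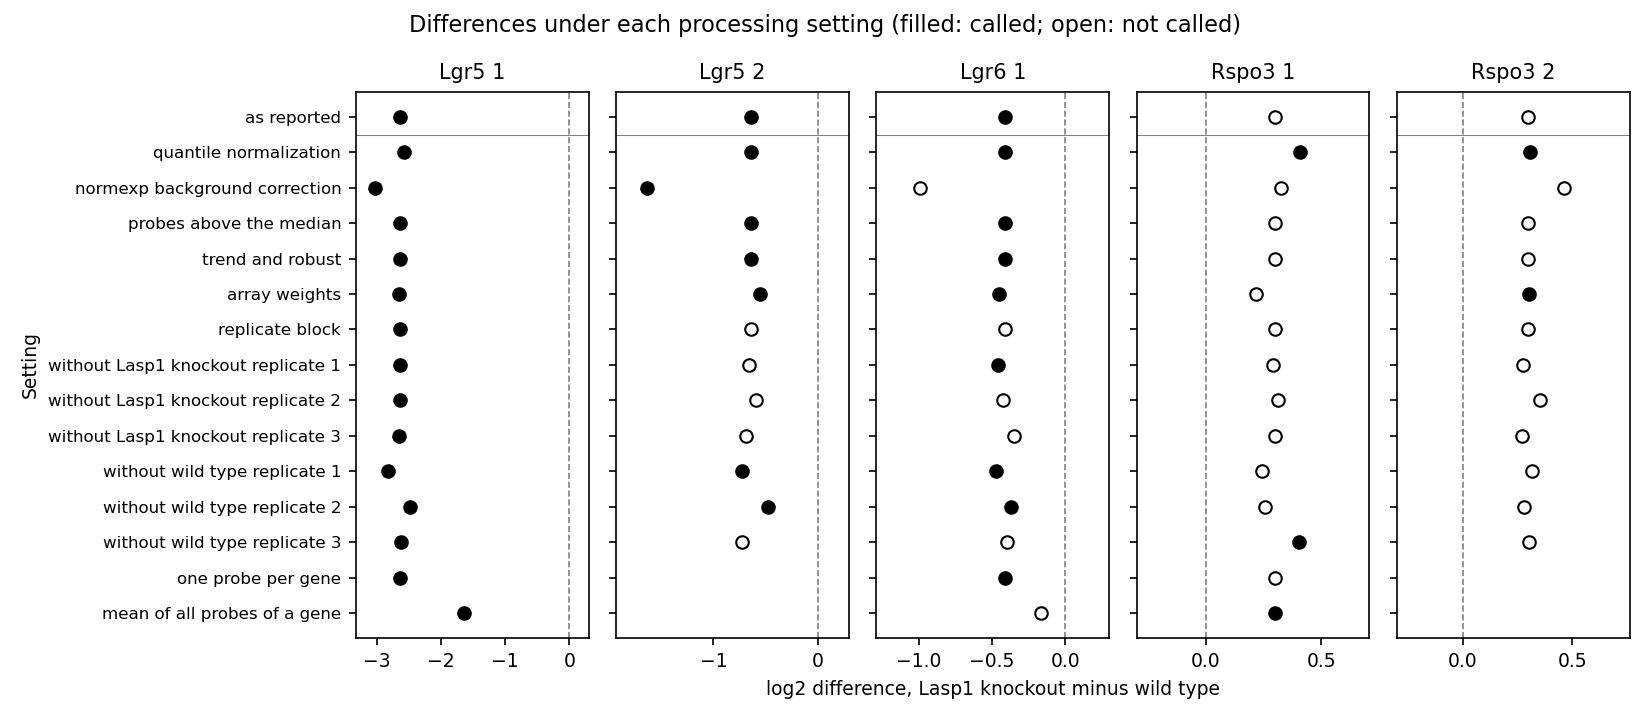
Log2 difference (knockout minus wild type) at both Lgr5 probes, the brightest Lgr6 probe and both Rspo3 probes, as reported in the top line and under each alternative setting below it, filled where called. The brighter Lgr5 probe is filled throughout, Lgr5 2 and Lgr6 1 lose their fill in some settings, and the Rspo3 probes gain it in some. For the mean of a gene's probes, the value is drawn under its brightest probe.

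RefSeq promoter windows (250 bases before to 50 after the transcript start, GRCm38.p6) were matched for 5 of the 9 genes: Lgr4, Lgr6, Rspo1, Rspo4 and Rnf43. The windows of Lgr6 and Rspo1 are shown because all knockout arrays lay below all wild-type arrays for both genes, at the brightest Lgr6 probe and at the Rspo1 probe, as they did for Lgr5. Lgr6 lies on the minus strand at chr1:135105227-135105526 and Rspo1 on the plus strand at chr4:124986180-124986479.
Lgr6: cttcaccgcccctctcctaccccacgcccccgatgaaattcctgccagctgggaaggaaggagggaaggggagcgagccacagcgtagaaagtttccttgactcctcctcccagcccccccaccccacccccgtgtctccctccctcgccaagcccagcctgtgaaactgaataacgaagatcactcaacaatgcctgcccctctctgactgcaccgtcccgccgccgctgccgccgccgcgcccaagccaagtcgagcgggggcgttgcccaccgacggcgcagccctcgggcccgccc
Rspo1: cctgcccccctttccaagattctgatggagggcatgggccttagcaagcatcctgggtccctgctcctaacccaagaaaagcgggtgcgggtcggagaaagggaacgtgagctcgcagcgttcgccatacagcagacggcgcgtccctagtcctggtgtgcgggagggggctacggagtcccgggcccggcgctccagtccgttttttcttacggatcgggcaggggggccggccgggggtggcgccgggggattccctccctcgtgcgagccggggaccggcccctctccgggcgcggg
Each was searched on both strands for CTTTG, the core of the site bound by TCF and LEF factors, which act in the nucleus for Wnt signals, and any match would stand in capitals. The core was in neither window, nor in those of Lgr4, Rspo4 or Rnf43, and 53.9% of 32851 promoter windows of that length held it at least once. The windows of Lgr6 and Rspo1 had 67.7% and 69.0% G and C, against a median of 52.7% over all windows.

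Other genes of the pathway were read at their brightest probe, in 7 lists that hold none of the 9 members. Of 120 genes listed 116 were measured, and limma called 5 higher and 6 lower. Over all 19057 genes read in this way 2.03% were called higher and 3.78% lower. The median log2 difference was -0.013 over the 116 genes and -0.023 over all genes, and 59 of the 116 exceeded 2000 in at least 1 array. The calls depended on single arrays: lower calls numbered 2 when knockout replicate 2 was left out, 3 for knockout replicate 3, 12 for wild type replicate 1 and 2 for wild type replicate 3. Higher calls in the lists numbered 2 when knockout replicate 3 or wild type replicate 3 was left out, where those over all probes numbered 293 and 274, against 633. Ccn4, Nkd2, Wnt10b and Sdc2 were called without each of the 6 arrays in turn. After normexp background correction only Nkd2, Wnt10a and Wnt10b of the 11 were called, with Ccn4 (limma adjusted p = 0.0521) and Sdc2 (limma adjusted p = 0.0686) among those lost.

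Of 18 Wnt target and feedback genes, 3 fell and 15 were not called. Nkd2, an intracellular antagonist that binds Dishevelled, read 3503, 2764 and 3070 in knockout and 5176, 6982 and 5512 in wild-type arrays (log2 difference -0.91 ± 0.12 SE, limma adjusted p = 0.00394). Ccn4, a secreted matricellular protein induced by Wnt1 in mouse mammary cells, read 78225, 72760 and 75050 in knockout and 131642, 130587 and 123795 in wild-type arrays (-0.77 ± 0.07, limma adjusted p = 0.000323), and its second probe was also called (-0.87 ± 0.15). In both genes every knockout array was below every wild-type array. Sox9, a transcription factor of cartilage and of epithelial stem cells, fell by 0.47 ± 0.09 on the log2 scale (limma adjusted p = 0.0200), and its second probe was also called (-0.51 ± 0.09). The brighter Sox9 probe was not called without knockout replicate 2, knockout replicate 3 or wild type replicate 3. Axin2, a feedback inhibitor widely used as a readout of Wnt signalling, read 2351, 2045 and 1937 in knockout and 2153, 2489 and 2224 in wild-type arrays. These overlapped, with a log2 difference of -0.12 ± 0.09 (95% interval -0.33 to 0.09, limma adjusted p = 0.655). Axin2 was singled out after its values had been seen.

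Of 16 Wnt receptors and co-receptors, which include the Frizzled receptors that the ligases remove from the membrane, Fzd2 fell and 15 were not called. Fzd2 read 13908, 10168 and 12309 in knockout and 16358, 22737 and 20997 in wild-type arrays (log2 difference -0.72 ± 0.14, limma adjusted p = 0.0239), with no overlap, and was not called without knockout replicate 2, knockout replicate 3 or wild type replicate 3. Among 21 Wnt ligands and secretion factors, Wnt10b and Wnt10a rose and 19 were not called. Wnt10b, a ligand that restrains adipocyte differentiation, read 1951, 1340 and 1586 in knockout and 896, 908 and 787 in wild-type arrays (0.90 ± 0.13, limma adjusted p = 0.00495). The wild-type readings lay in the dim part of the arrays, and a second Wnt10b probe read 707 to 779 on all arrays with a difference of 0.02 ± 0.07. The size of the Wnt10b rise depended on the processing: it was 2.12 (4.36-fold) after background correction and 0.46 (1.38-fold) over the mean of both probes, called in each. Wnt10a read 1432, 1372 and 1403 in knockout and 1108, 1016 and 1049 in wild-type arrays, with the wild-type readings near the array median. It rose by 0.41 ± 0.07 (limma adjusted p = 0.00991), or by 0.86 after background correction, and was not called without knockout replicate 3 or wild type replicate 3.

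Of 16 secreted antagonists and Kremen receptors, Sfrp2, which binds Wnt proteins outside the cell, fell by 0.44 ± 0.08 on the log2 scale (limma adjusted p = 0.0128) and 15 were not called. After background correction it differed by -0.75 and was not called. The Sfrp2 call was lost without knockout replicate 2 or wild type replicate 3. Among 28 cytoplasmic and nuclear transducers, Tle1, a corepressor of TCF factors, rose by 0.71 ± 0.13 (limma adjusted p = 0.0184), Tcf7l1, a TCF that mostly represses its targets, fell by 0.49 ± 0.10 (limma adjusted p = 0.0240), and 26 were not called. A second Tcf7l1 probe differed by -0.32 ± 0.12 and was not called (limma adjusted p = 0.208). All 6 Tle1 probes had a log2 difference above 0, and 2 were called, the other at 0.34 ± 0.08. A further Tle1 probe differed by 0.50 ± 0.14 with no overlap and was not called (limma adjusted p = 0.102). The remaining Tle1 probes read between 850 and 1106, with differences of 0.14, 0.05 and 0.02, and the mean of all 6 differed by 0.29. The Tle1 call was lost without knockout replicate 3 or wild type replicate 3, and the Tcf7l1 call without any 1 of the knockout arrays or wild type replicate 3.

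Of 13 other partners reported for LGRs or R-spondins, 2 syndecans rose and 11 were not called. Syndecans are membrane proteoglycans, and syndecan 4 is a receptor for R-spondin 3 in Xenopus. Sdc2 read 34918, 41660 and 34336 in knockout and 21916, 21413 and 22237 in wild-type arrays (0.75 ± 0.08, limma adjusted p = 0.00140), with a wide gap between the groups. Sdc4 read 17551, 14779 and 17359 in knockout and 9277, 13134 and 11859 in wild-type arrays (0.55 ± 0.13, limma adjusted p = 0.0484), and kept its call only without wild type replicate 2 among the 6 arrays left out in turn. None of 4 glycoprotein hormone and relaxin receptors, the closest relatives of LGR4 to LGR6, was called by limma, 0 had an unadjusted p under 0.05, and none exceeded 2000 in any array.

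**Figure D4:**
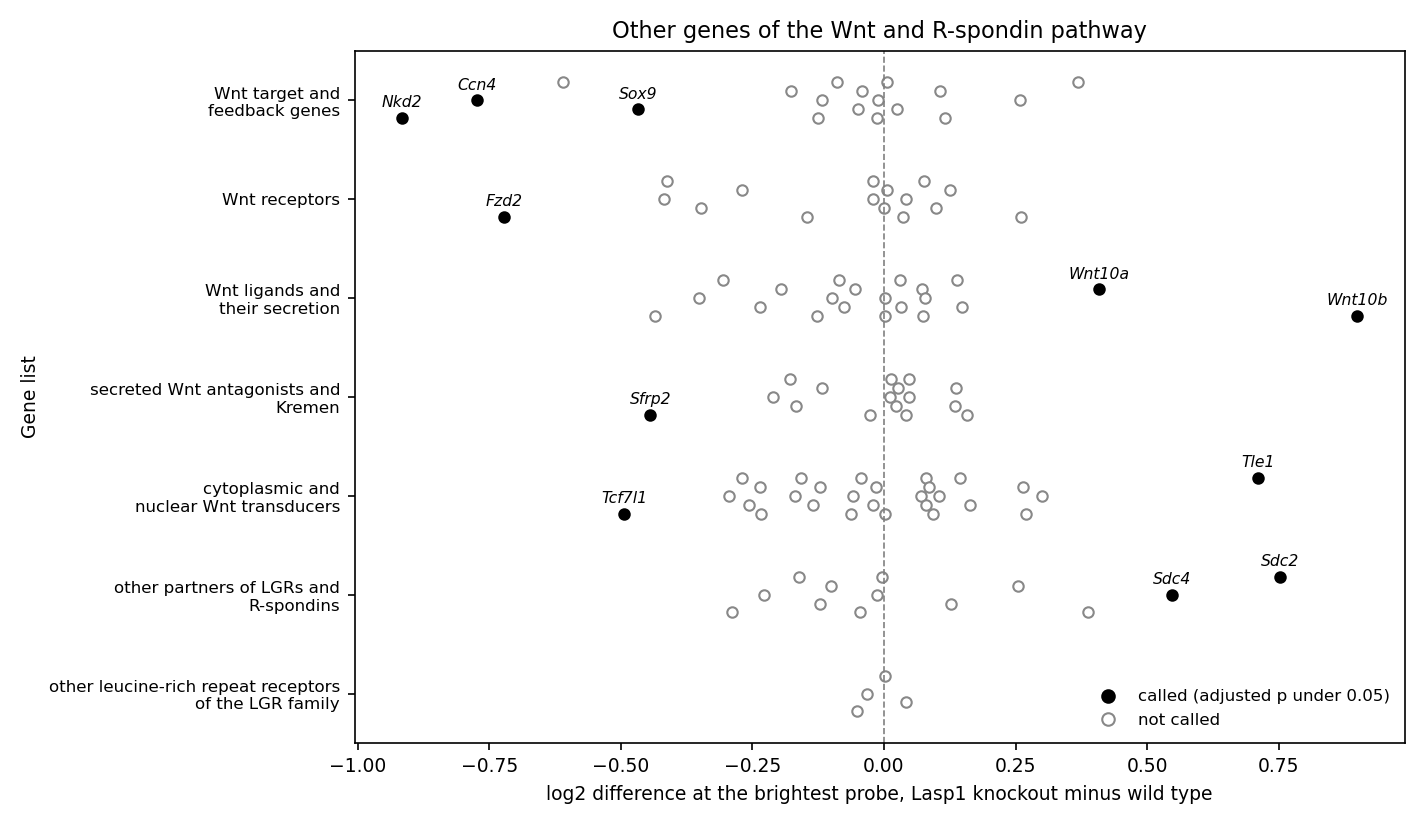
Log2 difference (knockout minus wild type) at the brightest probe of each of 116 other pathway genes, grouped by list, with called genes filled and named. Most genes of every list lie near 0, and the 11 called genes lie on both sides.

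The pattern of Lgr5 over the 6 arrays was nearest to those of Adh7, Msx1, Krt14, Tfap2b and Tmem204, by the root mean square distance between log2 values after centring each probe on its mean. The distance was 0.11 for Adh7, an alcohol dehydrogenase that oxidises retinol, 0.13 for Msx1, a homeobox factor of limb and face mesenchyme, and 0.21 for Krt14, a keratin of basal epithelium. It was 0.22 for Tfap2b, an AP-2 transcription factor, and 0.34 for the membrane protein gene Tmem204. Each of the 5 was lower in all knockout arrays, with log2 differences between -2.62 and -1.99 against -2.65 for Lgr5. Among the wild-type arrays replicate 1 was lowest for each of the 5, as for Lgr5, and replicate 2 was highest for Lgr5, Adh7, Msx1 and Tmem204. These likenesses rest on the genotype difference and on 6 arrays, and are a description.

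**Figure D5:**
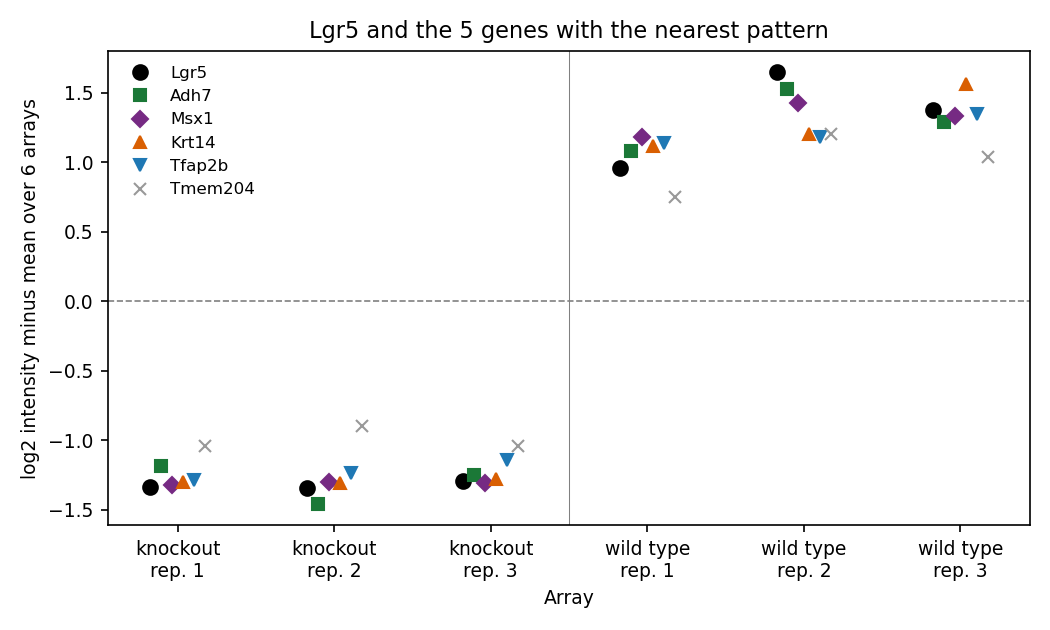
Log2 intensity in each array, centred on the mean over the 6 arrays, for Lgr5 and the 5 genes nearest to it. All 6 genes lie below 0 in the knockout arrays and above 0 in the wild-type arrays, with Lgr5 reaching from -1.34 to 1.65.

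Markers of other cell types in which Lgr5 or Lgr6 is known were read beside these values, at the brightest probe. Over all 19057 genes read in this way 3.78% were called lower and 2.03% higher. The 7 markers of intestinal Lgr5 stem cells were dim, with no reading over 2000, and their summed intensity was 6589 to 6774 in knockout and 6391 to 6909 in wild-type arrays. None was called, and Vil1 was higher (0.20) at a limma unadjusted p under 0.05. Of 10 epithelial and keratinocyte markers 2 fell, Krt14 and Krt8, and the summed intensity was 13095 to 13885 in knockout and 25836 to 31316 in wild-type arrays. Krt14 made up most of that gap, with 2565 ± 29.0 in knockout and 15557 ± 2617 in wild type (SD, n = 3 each). Of the epithelial adhesion genes, Epcam read below the array median (809 ± 64.2 and 868 ± 43.9) and Cdh1 near it (1065 ± 91.0 and 1037 ± 28.2). At a limma unadjusted p under 0.05 Krt19 was also lower (-0.45), while Cldn4 (0.31) and Krt18 (0.18) were higher. Of 6 measured tendon and joint markers 2 fell, the transcription factor genes Scx (-0.58 ± 0.12) and Mkx (-0.71 ± 0.08), and the sum was 12927 to 15481 in knockout and 17835 to 21245 in wild-type arrays. Gdf5 was higher (0.26) at a limma unadjusted p under 0.05, and the median log2 difference of this list was 0.004. Of 10 fibroblast markers 3 fell (Thy1, Dcn and Col1a2), and the sum was 646542 to 686873 in knockout and 823117 to 941894 in wild-type arrays. At a limma unadjusted p under 0.05 Col1a1 (-0.22), Col3a1 (-0.21), Pdgfra (-0.50) and Pdgfrb (-0.75) were also lower, and none was higher. The median log2 difference of the fibroblast list was -0.36. The part of these cell populations in the Lgr5 difference was not tested.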

How the data were processed

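Total RNA was labelled as biotinylated cRNA for Illumina arrays, per the labels' protocols. The deposited values are linear probe intensities whose median was 1000 in each of 6 arrays; for the scanner, software, background handling and bead summary, the sources used here give no details. The values were transformed to log2 with no further normalization. All 45281 probes entered a genotype-only model in limma 3.58.1 (R 4.3.3) with eBayes, whose degrees of freedom were 5.19 prior and 4 residual, with Benjamini-Hochberg adjustment over all of them and 0.05 as the threshold. Differences are knockout minus wild type. Of the probes 34885 had 1 gene symbol in the platform annotation, 18 several and 10378 none. A listed gene was read at its brightest probe (highest mean log2 value over the 6 arrays). The number of arrays limits the precision. The fit was tested on simulated data.

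The members, the pathway and marker lists and the alternatives were chosen with earlier results of these data known. Named genes were all members, Lasp1, for each pathway list up to 3 rises and 3 falls of largest size plus every called gene where 5 or fewer were called, defining markers, and the 5 genes nearest to Lgr5. Called markers were named after their values had been seen. The alternatives were quantile normalization, normexp background correction (offset 50), only probes above the median, a robust eBayes with an intensity trend (statmod 1.5.0), array weights, 1 probe per gene, the mean of a gene's probes, the replicate number as a block, and each array left out in turn.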

Additional observations from a re-analysis of the deposited data

How the results depend on the processing

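The fall of Lgr5 kept its direction and its call in all 14 alternatives. It was read at the brighter probe, except where the mean of a gene's probes was fitted. Member probes called lower numbered 3 as reported, 4 with array weights, 1 over the mean of a gene's probes, and 1 to 4 when an array was left out. Member probes called higher numbered 0 as reported, 2 after quantile normalization, 1 with array weights, 1 over the mean of a gene's probes, and 0 to 1 when an array was left out. Pathway genes called lower numbered 6 as reported, 10 after quantile normalization, 1 after background correction, 12 with array weights, and 2 to 12 when an array was left out. Those called higher numbered 5 as reported, 9, 2 and 8 in the same alternatives, and 2 to 7 when an array was left out. The dimmest Lasp1 probe was called with trend and robust estimation (-0.26) and with array weights (-0.28). Over all probes 1131 were called lower and 633 higher, against 1589 and 1712 after quantile normalization, 262 and 201 after background correction, 2231 and 1203 with array weights, 634 and 320 over the mean of a gene's probes, and 330 and 231 with the replicate block. Leaving out an array gave 343 to 1541 lower and 274 to 1608 higher. No log2 difference of a called member probe or of the 11 called pathway genes changed sign in the alternatives run. Axin2 was not followed through the alternatives.

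With the replicate block, 1 member probe was called lower, and 1 pathway gene lower (Ccn4) and 2 higher (Wnt10b and Sdc2), while Nkd2 was lost (limma adjusted p = 0.0638). Deviations from the group mean correlated at -0.44, -0.34 and 0.24 for numbers 1, 2 and 3, and only knockout replicate 3 correlated best with its own number. Knockout replicate 1 correlated at 0.51 with wild type replicate 2, and knockout replicate 2 at 0.39 with wild type replicate 1. Deviations of 3 arrays in a group depend on each other, so these values cannot settle whether arrays were paired. The causes of the changes in calls were not tested. No file value gives a detection call, so Lgr4, Lgr6, Rspo1, Rspo4, Znrf3 and Rnf43, all near or below the array median, could hold changes these arrays did not detect.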

Other observations

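Marker lists of cell types not described above also differed between genotypes in some members. Over all genes at the brightest probe 2.03% were called higher and 3.78% lower. Of 9 cartilage markers 2 rose, Col2a1 (log2 difference 3.92) and Sox5 (1.62), and Sox9 fell, with Acan, the main cartilage proteoglycan, near the array median in both groups. At a limma unadjusted p under 0.05 Sox6 was also higher (0.34) and Col9a1 lower (-0.21). The summed intensity was 67012 to 77429 in knockout and 53000 to 61392 in wild-type arrays. Of 8 dermal markers Dlk1 rose (0.82) and Dpp4 (-0.84) and Crabp1 (-0.96) fell, with sums of 164544 to 195019 in knockout and 144985 to 168052 in wild-type arrays. Of 6 muscle markers the actin gene Acta1 rose (1.52), with sums of 21255 to 22352 in knockout and 11762 to 13397 in wild type. Des was also higher (0.22) at a limma unadjusted p under 0.05. The myogenic factors Myod1, Myf5 and Myog were not called. Myog read near the array median, while Myod1 exceeded only 3.24% to 42.5% of the probes on each array and Myf5 12.0% to 25.5%. Of 5 measured macrophage markers the lysozyme gene Lyz2 rose (0.56), with sums of 9520 to 9885 in knockout and 7215 to 8217 in wild type. Limma called 0 of 5 endothelial markers, with Pecam1 higher (0.20) and Tek lower (-0.29) at an unadjusted p under 0.05, and sums of 5622 to 5792 in knockout and 5888 to 6355 in wild type. Their part in the Lgr5 difference was not tested.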
